A study of Mus musculus with 6 samples.

Results

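The MHC class I chains were followed as 9 genes in Lewis lung carcinoma (LLC) cells, a transplantable mouse lung tumour line of C57BL origin. They were taken by symbol from the 55291 genes of the table: the heavy chains H2-K1, H2-D1, H2-Q4, H2-Q6, H2-Q7, H2-T22 and H2-T23, the light chain B2m, and Nlrc5, the transactivator of class I genes. All 9 were present and all 9 passed the filter of a mean of at least 10 normalised counts. RNA sequencing compared 3 Calr KO libraries, from cells given plasmids for Cas9 and an sgRNA against Calr (calreticulin), with 3 control libraries, from cells given Cas9 and a control sgRNA, which the labels call WT. Both groups were cultured for 10 days, seeded in triplicate wells, left otherwise untreated and collected after 48 hours. The labels describe 1 transiently transduced population per group and do not say that clones were picked, so p-values measure the spread between wells and not between independent knockouts.

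A class I molecule is a heavy chain that holds a peptide in its groove, paired with β2-microglobulin. Newly made heavy chains fold in the endoplasmic reticulum (ER) with help from calnexin, and then from calreticulin, ERp57 and tapasin, which keep the molecule next to the TAP peptide transporter until a peptide is bound. Classical chains show peptides to cytotoxic T cells, while nonclassical chains are less polymorphic and serve more specialised receptors. Transcription of most class I genes responds to interferon and to NLRC5, which acts with RFX proteins at their promoters, and many tumour lines, LLC among them, are known for low class I at the surface unless stimulated with interferon-γ. Only mRNA was measured here, so neither assembly nor surface level is covered.

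The targeted gene followed its label, at 41.1% of the control mean. Bulk mRNA does not show how many cells lost calreticulin protein. Calr had 4467, 4216 and 4453 normalised counts in the Calr KO libraries, against 10711, 10202 and 11047 in controls, a log2 change of -1.28 (SE 0.04, limma adjusted p = 7.9e-07). The libraries summed to between 14040692 and 14099985 normalised counts, about 13565886 to 14920619 reads from the value of 1 read in each. In the labelled carcinoma cells the keratin genes Krt8 and Krt18 were present, whereas Epcam and Krt19 were listed at 0 throughout. Cdh1 averaged 1.72 in Calr KO and 2.97 in control libraries. Of the mesenchymal markers, Vim averaged 36379 and 39343, Fn1 4635 and 4804, and Cdh2 0 and 0.32. Fibroblast markers summed to between 1888 and 2198 in Calr KO and between 1728 and 2193 in control libraries, mostly from Pdgfra. Lymphocyte markers summed to between 0 and 3.15 in Calr KO and between 0 and 1.03 in control libraries, with Cd3e, Cd4, Ms4a1 and Nkg7 at 0 in all 6. Macrophage markers, of which Adgre1 was at 0, summed to between 65.1 and 114 in Calr KO and between 75.5 and 97.1 in control libraries, mostly from the lysosomal gene Cd68. The mitochondrial share was 2.89%, 2.90% and 2.97% in Calr KO libraries and 2.80%, 2.78% and 2.78% in controls; its part in the class I values was not tested.

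The heavy chains are close relatives on chromosome 17, and this limits what the counts can say. The sequences shown first are the most conserved gap-free stretch of 90 coding bases, in exon 4, which encodes the immunoglobulin-like α3 domain. At 87 of its 90 positions all 7 heavy chains carry the same base. Capitals mark bases that differ from H2-K1, and a read lying within this stretch could not tell H2-D1, H2-T22 and H2-T23 apart.
H2-K1: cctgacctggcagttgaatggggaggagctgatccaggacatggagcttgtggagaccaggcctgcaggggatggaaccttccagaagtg
H2-D1: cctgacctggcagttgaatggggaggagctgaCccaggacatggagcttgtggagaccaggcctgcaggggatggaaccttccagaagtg
H2-T22: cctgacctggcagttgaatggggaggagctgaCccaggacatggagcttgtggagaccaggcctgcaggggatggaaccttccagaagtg
H2-T23: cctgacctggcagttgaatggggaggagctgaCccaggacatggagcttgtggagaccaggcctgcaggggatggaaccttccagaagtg
H2-Q7: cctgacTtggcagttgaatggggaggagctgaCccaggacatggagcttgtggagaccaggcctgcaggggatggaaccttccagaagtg
On GRCm38 the stretch lies at chr17:33997377-33997466 (minus strand) in H2-K1, chr17:35265878-35265967 (plus) in H2-D1, chr17:36040570-36040659 (minus) in H2-T22, chr17:36030914-36031003 (minus) in H2-T23 and chr17:35442361-35442450 (plus) in H2-Q7.

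The most variable gap-free stretch of 60 coding bases lies in exon 2, which encodes part of the peptide-binding groove, and here the genes differ more. All 7 chains agreed at 16 of its 60 positions. H2-D1 differed from H2-K1 at 7 bases, H2-T23 at 15 and H2-T22 at 32 (capitals).
H2-K1: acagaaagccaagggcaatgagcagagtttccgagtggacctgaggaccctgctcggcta
H2-D1: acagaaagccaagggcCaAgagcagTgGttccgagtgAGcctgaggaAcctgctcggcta
H2-T22: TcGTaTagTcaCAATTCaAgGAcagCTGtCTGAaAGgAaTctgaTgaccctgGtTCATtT
H2-T23: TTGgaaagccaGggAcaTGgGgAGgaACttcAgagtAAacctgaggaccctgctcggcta
The coordinates are chr17:33999754-33999813 (minus) for H2-K1, chr17:35263569-35263628 (plus) for H2-D1, chr17:36041888-36041947 (minus) for H2-T22 and chr17:36032173-36032232 (minus) for H2-T23. Over whole coding sequences, identity was highest between H2-Q6 and H2-Q7 (95.4%), followed by H2-K1 and H2-D1 (92.0%). H2-T22 and H2-T23, which share a region and a letter, were 76.1% identical, less than H2-T23 and H2-K1 (83.8%).

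How far a read could be placed was measured as the share of stretches of a transcript that also occur in a transcript of another gene. For stretches of 75 bases, H2-K1 shared 1.55% and H2-D1 7.10%, the lowest of the heavy chains. H2-T23 shared 13.1%, H2-Q6 21.1%, H2-Q4 21.7%, H2-T22 26.1% and H2-Q7 27.5%. Most of the shared sequence of H2-T22 was with H2-T10 (20.1% of all its stretches), and the largest partner of H2-Q7 was H2-Q6 (13.8%). B2m shared none at this length, nor did Nlrc5. No source used here states the read length, and with stretches of 31 bases the shares of the heavy chains were between 23.3% and 63.3%. The values of the Q and T genes are therefore uncertain one by one, those of H2-K1 and H2-D1 less so.

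**Figure D1:**
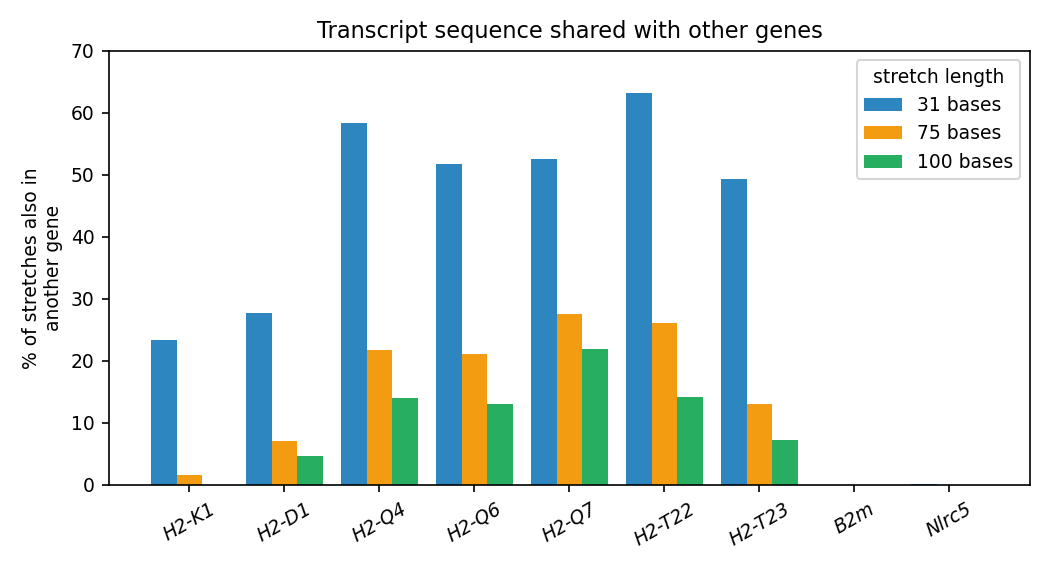
Bars give, for 1 reference transcript of each gene, the percentage of all stretches of 31, 75 or 100 bases that also occur in a transcript of another gene. H2-Q7 and H2-T22 share the most at 75 bases (27.5% and 26.1%), H2-K1 shares 1.55%, and B2m shares none.

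None of the 9 class I genes passed the test between Calr KO and control cells. The threshold was a limma adjusted p under 0.05 over the 13199 genes tested, which 37 genes (0.28%) met, 11 of them lower in Calr KO (0.0833%) and 26 higher (0.197%). At an unadjusted p under 0.05 there were 3 of the 9, H2-K1, H2-Q7 and H2-T23, against 8.88% of all tested genes, and 0 of 9 passed after adjustment with voom weights as well. The log2 change was below 0 in 8 of 9, B2m being the exception, and the median was -0.19 beside 0.00036 over all genes tested. In 4 of 9, H2-K1, H2-D1, H2-Q7 and H2-T23, every Calr KO library lay below every control library, as in 7.28% of all tested genes, while in 0 of 9 every Calr KO library lay above (7.57% of tested genes). The members share sequence, so these counts are not 9 separate observations. In bulk RNA, fewer cells expressing a gene and less RNA per cell cannot be told apart.

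**Figure D2:**
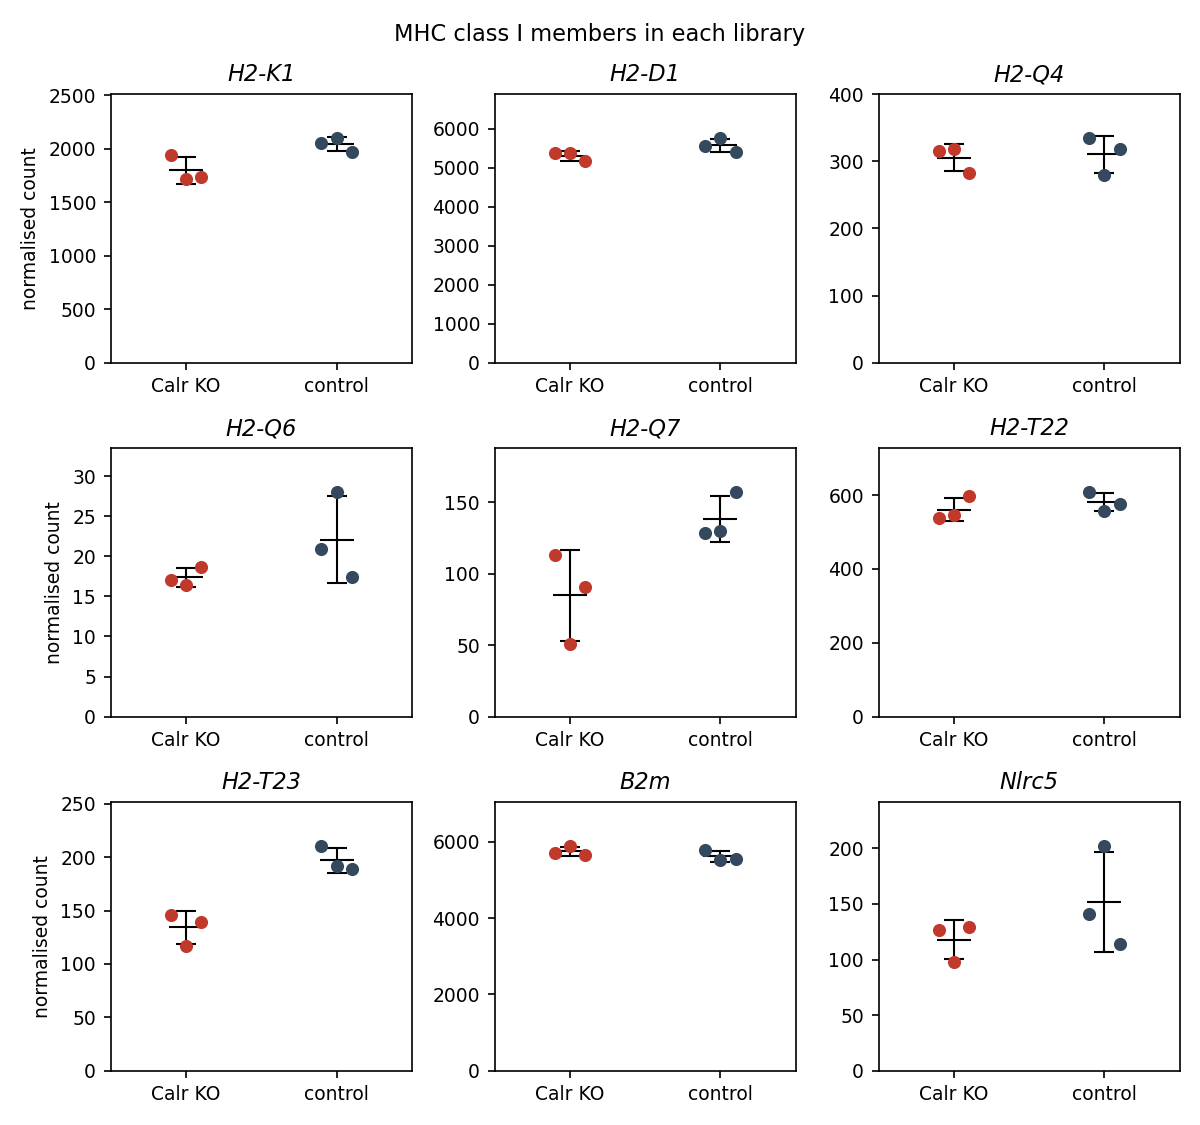
Points are the 3 libraries of each group (Calr KO in red, left; control in dark blue, right), with the mean as a bar and the SD as whiskers; each panel has its own axis of normalised counts from 0. The groups are apart in H2-K1, H2-D1, H2-Q7 and H2-T23 and overlap in the other panels.

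H2-K1 and H2-D1 are the classical chains, encoding the K and D molecules that present peptides to CD8 T cells. H2-K1 (ENSMUSG00000061232.16, chr17:33996017-34000347, minus strand) had 1945, 1713 and 1736 normalised counts in Calr KO libraries, against 2057, 2098 and 1973 in controls. All Calr KO values were lower, replicate 1 by the least. The log2 change was -0.19 (SE 0.06, 95% interval -0.32 to -0.06), with an unadjusted p = 0.010 and a limma adjusted p = 0.381, so Calr KO cells held 88.0% of the control level without passing.

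H2-D1 (ENSMUSG00000073411.11, chr17:35262730-35267499, plus strand) was the most abundant heavy chain. It had 5370.2, 5380.1 and 5166 normalised counts in Calr KO libraries, against 5554, 5754 and 5415 in controls. The groups did not overlap, but the gap between the highest Calr KO and the lowest control library was small. The mean was 5306 ± 121 in Calr KO and 5574 ± 171 in control (SD, n = 3), a log2 change of -0.07 (95% interval -0.15 to 0.01, limma adjusted p = 0.614). A fall beyond 0.15 on the log2 scale lies outside that interval.

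The H2-Q genes encode nonclassical chains, and H2-Q6 and H2-Q7 belong to the group that gives the Qa-2 antigen, which can be anchored in the membrane by a lipid. H2-Q7 (chr17:35439155-35443773) had 113, 50.7 and 90.9 normalised counts in Calr KO libraries, against 129, 129.8 and 157 in controls. Its Calr KO libraries were all lower and varied widely, with replicate 2 the lowest. The log2 change of -0.77 (SE 0.26, 95% interval -1.36 to -0.18, limma adjusted p = 0.454) was the lowest among the members, with the widest spread of Calr KO libraries in proportion to the mean. Dropping Calr KO replicate 2 made it -0.44, and dropping Calr KO replicate 1 made it -1.01.

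H2-Q6, the near copy of H2-Q7, had 17.0, 16.4 and 18.7 normalised counts in Calr KO libraries, against 20.9, 27.97 and 17.4 in controls, and the groups overlapped. Summed over the 3 libraries this is about 52 reads in Calr KO and 66 in control, a ratio of 0.788 with an exact 95% counting interval of 0.537 to 1.151, so a change of that size was not detectable at this depth. The interval covers counting error only. H2-Q4, which encodes the Qb-1 antigen, had 315, 319 and 283 normalised counts in Calr KO libraries, against 334, 280.2 and 318 in controls. The groups overlapped and the log2 change was -0.02 (95% interval -0.25 to 0.20, limma adjusted p = 0.971); dropping Calr KO replicate 3 turned it to 0.03, as did dropping control replicate 1.

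Of the H2-T members, H2-T23 had the lower level per kilobase and the lower log2 change. H2-T23 (ENSMUSG00000067212.8, chr17:36029773-36032855, minus strand) encodes Qa-1, which binds leader peptides of other class I chains and is read by the CD94/NKG2 receptors of NK cells. It had 146, 117 and 139.6 normalised counts in Calr KO libraries, against 210.1, 192 and 189 in controls, with a clear gap between the groups. The mean was 134 ± 15.3 in Calr KO and 197 ± 11.5 in control (SD, n = 3), 68.2% of the control level. The log2 change was -0.55 (SE 0.13, 95% interval -0.84 to -0.27). Its unadjusted p = 0.0016 was the smallest among the members, ranking 108 of 13199 genes, but the limma adjusted p = 0.194 did not pass, and over 17 other settings it ranged from 0.183 to 0.398.

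H2-T22 (chr17:36037128-36042747, minus strand) encodes a chain that has no peptide groove of the usual kind and is a ligand of some γδ T cell receptors. It had 538, 546 and 596 normalised counts in Calr KO libraries, against 607, 558 and 577 in controls, and the groups overlapped. The log2 change was -0.05 (95% interval -0.22 to 0.11, limma adjusted p = 0.880). The log2 ratio of H2-T23 to H2-T22 was -2.06 ± 0.17 in Calr KO and -1.56 ± 0.04 in control (SD, n = 3), a difference of -0.50, lower in all 3 Calr KO libraries.

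Across 5 pairs of members, each library's log2 ratio was set against the other group. H2-T23 relative to H2-K1 differed by -0.37, H2-K1 relative to H2-D1 by -0.11, H2-K1 relative to B2m by -0.22 and H2-D1 relative to B2m by -0.10. Dropping Calr KO replicate 2 made the H2-K1 to H2-D1 difference -0.07, and dropping control replicate 2 made that of H2-D1 to B2m -0.07. In all 5 pairs, the H2-T23 to H2-T22 pair included, the 3 Calr KO libraries lay below the 3 controls. An exact permutation test, two-sided, returned p = 0.1 for every pair (0.1 adjusted over the 5 pairs). With 3 libraries a side no smaller p exists, and 0.05 was out of reach. The pairs were chosen with earlier results known and share members, so they are not separate observations.

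B2m, the invariant light chain without which most heavy chains do not reach the surface, did not pass either. B2m (ENSMUSG00000060802.8, chr2:122147686-122153083) had 5715, 5883 and 5668 normalised counts in Calr KO libraries, against 5789.7, 5524 and 5563 in controls, and the groups overlapped. The log2 change was 0.03 (95% interval -0.04 to 0.11, limma adjusted p = 0.824), so changes beyond 0.11 in size lie outside the interval. The B2m transcript shared no stretch of even 31 bases with another gene, so this value does not depend on how reads of related genes were divided.

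Nlrc5, which drives class I transcription, lay at low level on chromosome 8 (94434356 to 94527272, plus strand). It had 127, 97.9 and 129 normalised counts in Calr KO libraries, against 141, 202 and 114 in controls. Control replicate 2 stood above the other 5 libraries, and the groups overlapped. The log2 change was -0.33 (95% interval -0.81 to 0.14, limma adjusted p = 0.715), and it was -0.11 without control replicate 2.

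**Figure D3:**
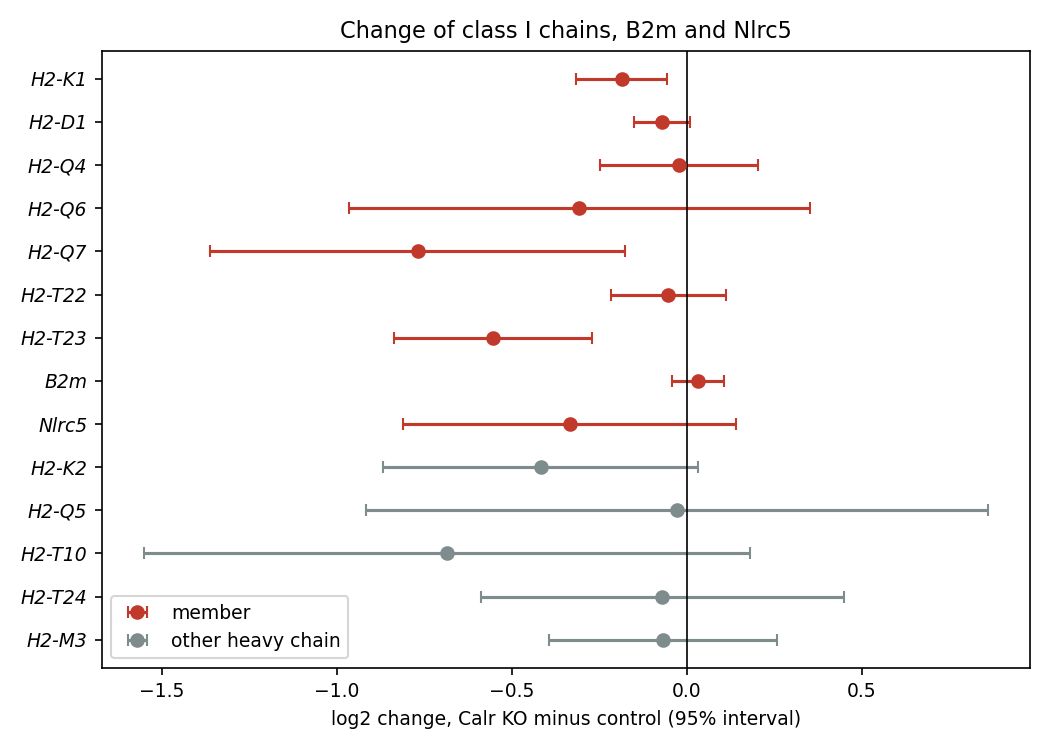
Points are log2 changes of Calr KO minus control with 95% intervals from limma, for the 9 members (red) and the 5 other heavy chain genes that passed the filter (grey). The intervals of H2-K1, H2-Q7 and H2-T23 lie below 0, that of B2m runs from -0.04 to 0.11, and those of the low genes are wide.

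Of 40 other class I heavy chain symbols listed, 28 were in the table, 14 of these were above 0 in any library and 5 passed the filter; 0 of the 5 passed the test. H2-K2, annotated as a transcribed pseudogene, averaged 32.2 ± 2.03 in Calr KO wells against 43.3 ± 1.55 in control wells (normalised counts, SD, n = 3), with no overlap between groups (log2 change -0.42, limma adjusted p = 0.594). H2-T10, the near copy of H2-T22, averaged 14.8 ± 5.55 in Calr KO wells against 24.2 ± 8.05 in control wells (SD, n = 3; log2 change -0.69, limma adjusted p = 0.664). H2-M3, which presents N-formylated peptides, averaged 115 ± 15.5 in Calr KO wells against 119.8 ± 7.10 in control wells (log2 change -0.07, limma adjusted p = 0.931). H2-T24 had a log2 change of -0.07 and H2-Q5 of -0.03, with limma adjusted p of 0.957 and 0.992. H2-T10 and H2-Q5 are annotated as polymorphic pseudogenes.

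Sums over related genes are less touched by how reads shared within a sum were divided, as between H2-T22 and H2-T10. They do not cover sequence shared across sums. At 75 bases H2-D1 was among the largest partners of H2-T23, and H2-T23 among those of H2-D1. The largest partner of H2-T23, Gm7030 (6.15% of its stretches), lies outside the H2-T sum. H2-K1 and H2-D1 together had 7316, 7093 and 6902 normalised counts in Calr KO libraries, against 7612, 7852 and 7388 in controls, 93.3% of the control mean. The H2-T genes summed to 749.8, 724 and 794 in Calr KO libraries and to 901, 837 and 819 in controls (88.7%), again without overlap. Left without H2-T23, the same sum was 621 ± 28.4 in Calr KO against 655 ± 31.6 in control libraries (SD, n = 3) and the groups overlapped. The H2-Q genes summed to 467, 399.9 and 407 in Calr KO libraries and to 505, 457 and 502 in controls (87.0%), with overlap between Calr KO replicate 1 and control replicate 2. Without H2-Q7 it was 339.9 ± 20.4 in Calr KO against 349.7 ± 25.2 in control libraries (SD, n = 3).

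All class I heavy chains in the table together had 8667, 8379 and 8261 normalised counts in Calr KO libraries, against 9174, 9314 and 8879.7 in controls. Every Calr KO library was lower, the mean being 92.5% of the control mean. The ratio of this sum to B2m was 1.47 ± 0.05 in Calr KO and 1.62 ± 0.06 in control libraries (SD, n = 3), again without overlap. H2-D1 made up 62.9% of the summed heavy chain counts in Calr KO and 61.1% in control libraries, H2-K1 21.3% and 22.4%, and H2-T23 1.59% and 2.16%. No test was run on these sums, since they combine genes chosen with results known.

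Levels between genes were compared per kilobase of 1 reference transcript. Per kilobase, B2m averaged 6693 ± 132 in Calr KO wells against 6541 ± 167 in control wells (SD, n = 3), the highest of the members. H2-D1 followed with 2524 and 2652, H2-K1 with 1111 and 1262, H2-T22 with 318 and 329.7, H2-Q4 with 170.5 and 173, H2-T23 with 91.3 and 134, H2-Q7 with 56.7 and 92.5, Nlrc5 with 15.6 and 20.1, and H2-Q6 with 8.32 and 10.59 as means in Calr KO and control. The order was the same in both groups, and no 2 neighbours in it overlapped in either group. Lengths of transcripts with several isoforms are approximate, and the order below H2-T22 also rests on how shared reads were divided.

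Promoter sequence is shown for 1 classical and 1 nonclassical chain. The windows printed are the 250 bases before the RefSeq start on GRCm38.p6, and capitals mark matches on either strand to 4 letter strings, GGGGATTCC (part of an NF-κB site), GTTTCACTT (the core of an interferon-stimulated response element), TGACG (a CRE core) and CCAAT (bound by NF-Y).
H2-K1: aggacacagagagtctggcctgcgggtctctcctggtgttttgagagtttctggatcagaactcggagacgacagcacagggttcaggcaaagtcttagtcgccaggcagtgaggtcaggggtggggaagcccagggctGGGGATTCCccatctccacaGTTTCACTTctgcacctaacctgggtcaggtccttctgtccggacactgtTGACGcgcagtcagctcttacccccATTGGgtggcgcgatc
H2-T22: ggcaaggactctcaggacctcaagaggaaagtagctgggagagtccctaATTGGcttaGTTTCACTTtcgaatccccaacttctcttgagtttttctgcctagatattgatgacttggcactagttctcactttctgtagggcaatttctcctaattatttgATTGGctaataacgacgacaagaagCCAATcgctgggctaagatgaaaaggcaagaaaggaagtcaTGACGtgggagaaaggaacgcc
They lie on the minus strand at chr17:34000348-34000597 for H2-K1 and chr17:36042743-36042992 for H2-T22. GTTTCACTT was found in H2-K1, H2-D1, H2-Q4, H2-Q6, H2-Q7 and H2-T22 and in 0.338% of the 32851 promoters of the same length. GGGGATTCC was found in H2-K1, H2-D1, H2-Q6 and H2-Q7 and in 0.213% of all promoters, whereas TGACG and CCAAT occur in 17.8% and 33.8%. Only exact matches were counted, so the H2-Q4 window, which holds ggggatttcc, is not among those with GGGGATTCC. The H2-T23 window held CCAAT alone, and the B2m window TGACG and CCAAT, but the RefSeq starts of H2-D1 and H2-T23 lie downstream of their GENCODE starts. The H2-D1 window lies wholly within its GENCODE gene and the H2-T23 window partly, and those of H2-T22 and B2m overlap theirs by 5 bases and 1 base. Of the 9 members, 8 had a promoter in the table. The strings were chosen after the sequences were seen, no matches overlap in these windows, and a match is a description and not a bound site.

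Around the chains, genes of class I assembly did include calls. Of 8 peptide loading genes, all tested, 2 rose and 1 fell, the targeted gene Calr itself. Over all tested genes 0.197% rose and 0.0833% fell. The other 5 of the list did not pass, with limma adjusted p from 0.649 to 0.932. Their log2 changes were -0.05 for Tap1, 0.07 for Tap2, -0.14 for Tapbp, 0.16 for Tapbpl and 0.53 for Erap1. Pdia3, which encodes ERp57, averaged 16149 ± 999 in Calr KO wells against 10104 ± 505 in control wells (normalised counts, SD, n = 3), a log2 change of 0.68 (limma adjusted p = 2.87e-04), and Canx, which encodes calnexin, rose by 0.30 (limma adjusted p = 0.040). Without a variance trend neither Pdia3 (limma adjusted p = 0.147) nor Canx (0.453) passed. Canx lost its call in 5 of 6 fits with a library left out, the adjusted p reaching 0.1396 when Calr KO replicate 1 was dropped. Pdia3 kept its call in all 6, with a highest limma adjusted p of 0.0035. The median of the list, Calr included, was 0.12. The difference between this list and the chains was not tested.

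Of 7 class I-like genes outside the MHC, 5 were tested and 1 rose, Hfe, whose product pairs with β2-microglobulin and acts in iron control. Over all tested genes 0.197% rose. Hfe had 191, 219.7 and 183 normalised counts in Calr KO libraries, against 113, 95.8 and 104 in controls, a log2 change of 0.92 (limma adjusted p = 0.022). It lost its call in 5 of 6 fits with a library left out, the adjusted p reaching 0.125 when Calr KO replicate 2 was dropped, and in the fit without a variance trend (0.147). Mr1, which presents vitamin B metabolites, averaged 491 ± 32.0 in Calr KO wells against 568 ± 19.2 in control wells (SD, n = 3; log2 change -0.21, limma adjusted p = 0.471). Procr had a log2 change of 0.05 and Fcgrt, the neonatal Fc receptor, of -0.23, and neither passed.

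Regulators of class I transcription gave 0 calls. With voom weights the lists held 4 calls in all, the targeted gene Calr among them, the same number as without them. Of 16 class I transcription genes, 0 passed, with a median log2 change of -0.02. An unadjusted limma p under 0.05 was met by 2, against 8.88% of all tested genes. The most abundant of the 16 were Creb1 (-0.05), Nfkb1 (-0.03) and Nfkb2 (-0.02). Rfx5, which recruits NLRC5 to promoters and is named after its values were seen, averaged 489.8 ± 27.1 in Calr KO wells against 563 ± 30.2 in control wells (SD, n = 3; log2 change -0.20, limma adjusted p = 0.505). Of 11 interferon receptor and signalling genes 0 passed, with a median of -0.03, 8 of them below 0 and 3 above. Among all tested genes 6582 were below 0 and 6617 above. The most abundant of the 11 were Jak1 (-0.0021), Ifnar1 (-0.03) and Socs3 (-0.06). At an unadjusted limma p under 0.05 were 2 of the 11, against 8.88% of all tested genes. They were Ifnar2 (-0.41, limma adjusted p = 0.350) and Ifngr2 (-0.32, 0.509), named after their values were seen. Of 6 chromatin repressors 0 passed, and 0 had an unadjusted limma p under 0.05; log2 changes were 0.03 for Dnmt1, -0.01 for Suz12 and 0.01 for Setdb1.

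The 5 immunoproteasome and activator genes, which shape the peptides that class I receives, also had 0 calls. At an unadjusted limma p under 0.05 there were 2, against 8.88% of all tested genes. Psme1 averaged 494 ± 26.4 in Calr KO wells against 439 ± 8.78 in control wells (log2 change 0.17), and Psme2 349 ± 7.58 against 298 ± 22.4 (0.23; SD, n = 3), with limma adjusted p of 0.560 and 0.505. Psmb8 had a log2 change of 0.0076. Of 10 genes of the class II pathway, which presents to CD4 T cells, 3 were tested and 0 passed. None of the 3 had an unadjusted limma p under 0.05. Log2 changes were 0.02 for H2-DMb1, 0.17 for H2-DMa and -0.59 for H2-Ab1. H2-Ab1 was at about 12.2 and 17.7 normalised counts in Calr KO and control. Of 7 measured genes of class I turnover 0 passed (1 at an unadjusted limma p under 0.05), with Sppl2a at 0.11, Sec61b at -0.13 and Sppl3 at 0.05.

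**Figure D4:**
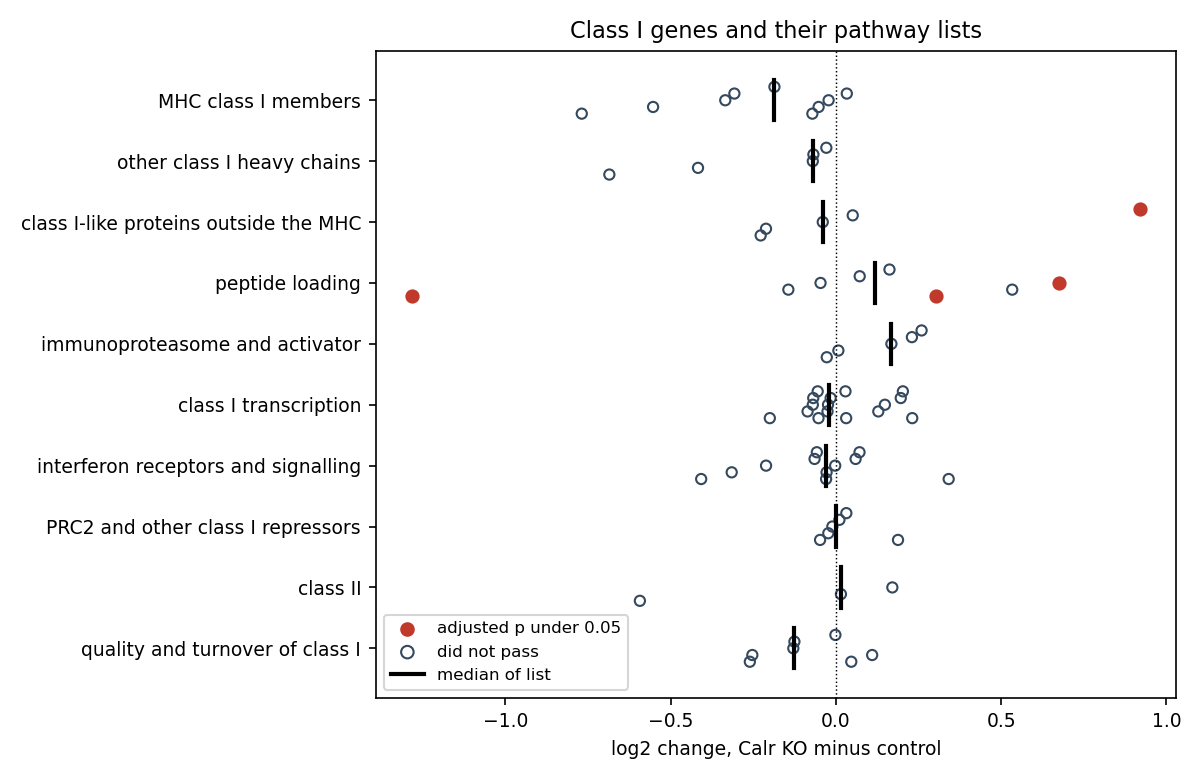
Each point is the log2 change of 1 tested gene, Calr KO minus control, by list; filled red points passed a limma adjusted p under 0.05, open points did not, and black bars are list medians. The members' median is -0.19 with no filled point, while Hfe at 0.92, Pdia3 at 0.68, Canx at 0.30 and Calr at -1.28 are filled.

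The nearest profiles over the 6 libraries were taken by the root mean square difference of centred log2 values, as a description. For H2-T23 these were Trim54, Sgf29 and Gng2, at 0.06, 0.07 and 0.08, beside a median distance of 0.32 to all tested genes. For H2-K1 they were Samd1, Tiparp and Rragd, at 0.02 each, beside a median of 0.17. For B2m they were Rplp1, Nme2 and Rpl9, at 0.01 each, beside a median of 0.12. No other member was among the 3 nearest genes of any member.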

How the data were processed

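RNA from 6 libraries of LLC cells was sequenced after SMARTer mRNA-seq library preparation, per the labels. The deposited values are a signal, not raw counts: the authors normalised gene counts with DESeq2, per the labels. Tools named in the submitters' processing notes are DESeq2 1.34.0, Salmon 0.14.1 and STAR 2.6.1d, with the build mm10. The annotation release and read length are not given in the sources used here. Values are not whole reads, so no count model was run.

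limma 3.58.1 (R 4.3.3), with a mean-dependent variance trend, was fitted to log2(value + 1) of the 13199 genes whose mean normalised count was 10 or more. Tests were two-sided, and Benjamini-Hochberg adjustment ran over all of them. Fold changes on this scale understate those of low genes. The procedure was tested on simulated data. The changes planted there were larger than any change of a member, so it does not bear on detecting changes of that size. The members, lists and pairs were chosen with earlier results of these data known. Genes named were Calr, the 9 members, all tested heavy chains and the 3 nearest profiles. From each list, called genes and up to 3 of the highest mean were named. Rfx5, Ifnar2, Ifngr2, Tap1, Tap2, Tapbp, Tapbpl and Erap1 stand outside this rule. One of the 2 transcription list genes at an unadjusted p under 0.05 is not reported here. All 6 libraries carry the same batch label.

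Coordinates, transcripts and coding sequences are from GENCODE M21 on GRCm38, the assembly of mm10; the transcript used was the principal or longest coding one. Promoters are from RefSeq. Alignments used Biopython 1.88 and MAFFT 7.526. Alternatives were other pseudocounts, filters, scalings, no variance trend, voom weights, a replicate block and leaving out each library. The sums without H2-T23 or H2-Q7 were chosen after seeing the data.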

Additional observations from a re-analysis of the deposited data

How the results depend on the processing

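The count of 0 class I members passing held under all 17 alternatives, and the 3 members with an unadjusted limma p under 0.05 were H2-K1, H2-Q7 and H2-T23 in 16 of them; without control replicate 3 they were H2-K1, H2-D1, H2-T23 and Nlrc5. Calr passed in each. Of the members, H2-Q4 alone changed sign (-0.0944 to 0.0324 with each library left out; 0.0324 when Calr KO replicate 3 was dropped and 0.0323 when control replicate 1 was); H2-Q6 was not tested with a mean of at least 50. With each library left out in turn, the log2 change ranged from -0.62 to -0.46 for H2-T23, -0.24 to -0.15 for H2-K1 and -0.52 to -0.11 for Nlrc5. Under upper-quartile scaling the median of all genes was -0.01, and it was nearer 0 under the other scalings. Over all genes, 37 passed (11 lower, 26 higher). Leaving out 1 library gave 20 to 34 (4 to 9 lower, 14 to 25 higher), and without the variance trend 2 passed, 1 lower and 1 higher. Calls in the pathway lists, Calr among them, numbered 4, and 2 to 4 with a library left out. Without the trend the 1 call was Calr, the targeted gene. The cause of the drop was not tested. With the replicate block 26 genes passed, 5 of them lower, and it ended the call of Hfe (adjusted p = 0.091) but no call of a member. Same-numbered libraries of the 2 groups had residual correlations of -0.06, -0.01 and 0.0014, so the numbers were not taken to pair the samples. The 5 ratios between members and the sums of H2-K1 with H2-D1, of the H2-Q genes, of the H2-T genes and of all heavy chains kept their direction in each alternative run on them; none was run on the ratio to B2m of all heavy chains or on the sums without H2-T23 or H2-Q7. Low depth limits H2-Q6, H2-Q5 and H2-T10 most.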
